A study of Homo sapiens with 10 samples.

Results

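Germinal centre B-cell markers are genes whose RNA is abundant in B cells of the germinal centre, the site in lymphoid follicles where B cells mutate and are selected for their antigen receptors. The 7 genes described here (LMO2, SERPINA9, MME, MYBL1, UCHL1, RGS13 and MEF2B) were taken by symbol from 2 tables of expression values, and all 7 were found among 25275 symbols. Diffuse large B-cell lymphoma is divided by gene expression into a germinal centre B-cell-like and an activated B-cell-like type. LMO2, MME, MYBL1 and SERPINA9 are known as genes of the germinal centre B-cell-like type, whereas both cell lines of this study, OCI-LY10 and TMD8, are of the activated type. The factors of the germinal centre programme, among them BCL6 and its activator MEF2B, hold the cell in that state, and IRF4 and PRDM1 take it on towards the plasma cell.

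The series addresses the role of the transcription factor STAT3 in these lymphoma lines and holds 10 samples, of which 6 are RNA-seq. In each line 1 sample carried a control shRNA, 1 carried STAT3 shRNA 10 and 1 carried STAT3 shRNA 16, and in every one of them, controls included, the shRNA was switched on with 20 ng/ml doxycycline over 2 days. The other 4 samples are STAT3 ChIP-seq after 4 h with the JAK inhibitor AZD1480 or with DMSO, and they are not analysed here. In OCI-LY10 the 3 value columns are named for their shRNAs. The 3 TMD8 columns bear no names, so they are given by position (the first, the second and the third) without an shRNA, and with no test. No label names the number of clones behind a line or a second culture of any condition.

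Values are FPKM (fragments scaled to gene length and to the mapped fragments of the library), 1 per gene and library, so levels of different genes can be compared per length. Relative sequencing depth was estimated from the commonest ratio of low values between each library and the OCI-LY10 library with STAT3 shRNA 10. It ranged from 0.73 to 1.52 times that of this library. For the TMD8 columns the estimate assumes that both tables were scaled alike. The OCI-LY10 libraries labelled STAT3 shRNA stood apart from the other 4, that labelled control included. Across 11002 genes, small RNA genes left out, Pearson's r on the log2(FPKM + 1) scale was 0.845 and 0.844 between it and the STAT3 shRNA libraries, and 0.934, 0.938 and 0.959 between it and the TMD8 columns. The STAT3 shRNA libraries correlated with each other at 0.994, and with the TMD8 columns at 0.796 to 0.815. Genes within a library are not independent replicates, and these values are a description. What follows therefore compares libraries as labelled, and an effect of STAT3 shRNA cannot be told apart from any other difference between these libraries, a column under a wrong name included. With 1 control library, no value can be given without it. Small RNA genes made up 49.0% of summed FPKM in the OCI-LY10 control, 57.8% and 58.1% with the shRNAs and 22.5%, 28.7% and 43.3% in the TMD8 columns. FPKM were not recomputed without them. Settings of the fit that left them out or rescaled the OCI-LY10 libraries are given at the end. STAT3 itself was at 16.5 FPKM in the OCI-LY10 control and at 11.1 and 10.6 with the shRNAs (limma adjusted p = 0.0465). That call was lost with 0.1 FPKM added before the logarithm in place of 1 (adjusted p = 0.0508) and when no gene was filtered out for low values (0.0688). In the TMD8 columns it was at 120.3, 24.3 and 22.5 FPKM, and no shRNA was assigned to a column from these values.

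B-cell identity genes were present in every library. CD79A, a signalling chain of the B-cell receptor, was at 328 FPKM in the OCI-LY10 control, 720.0 and 884 with the shRNAs and 305 to 373 in TMD8, and PAX5, the factor that maintains B-cell identity, at 72.3, 88.1 and 92.2 and at 80.9 to 90.8. In OCI-LY10 the partner chain CD79B rose from 226 FPKM to 1139 and 1226 (limma adjusted p = 0.00938) and the receptor inhibitor CD22 fell from 62.1 to 23.0 and 29.3 (adjusted p = 0.0384, and 0.0956 when low genes were kept in the test). PAX5 did not pass (adjusted p = 0.0933). The 8 pan-B-cell markers summed to 1094 FPKM in the OCI-LY10 control, 2986 and 3337 with the shRNAs and 1342 to 1745 in TMD8. All 8 were tested, and 6 rose, 1 fell and 1 did not pass (median change 1.19). Of all tested genes, 20.3% rose and 17.4% fell, and with 8 markers this count is only a description. The T-cell genes CD3D and CD2 were listed at 0 in all 6 libraries. The 9 T and NK cell markers summed to 16.0 FPKM in the OCI-LY10 control, of which CD5, a gene also expressed by some B cells, made up 15.8, and to 0.494 and 0.703 FPKM with the shRNAs. The 8 myeloid and erythroid markers summed to 0.645 to 1.70 FPKM over all libraries, with MPO and HBB listed at 0 throughout.

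Promoter sequences of 5 of the 7 markers were found in a RefSeq table (GRCh38.p14), and 3 are shown: SERPINA9 and MEF2B, which were lower in the STAT3 shRNA libraries, and UCHL1, which was higher. Each is the 250 bases before the gene's start, 5′ to 3′ on the gene's strand. Capitals mark the octamer ATTTGCAT or its reverse complement, the site known to be bound by POU2F factors with the B-cell co-activator POU2AF1. This motif was picked after the sequences were seen.
SERPINA9, chr14:94476198-94476447, minus strand: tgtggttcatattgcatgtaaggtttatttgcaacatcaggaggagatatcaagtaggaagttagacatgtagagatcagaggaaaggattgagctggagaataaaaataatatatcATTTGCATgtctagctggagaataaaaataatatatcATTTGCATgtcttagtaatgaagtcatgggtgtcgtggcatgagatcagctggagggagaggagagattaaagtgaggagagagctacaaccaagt
MEF2B, chr19:19170264-19170513, minus strand: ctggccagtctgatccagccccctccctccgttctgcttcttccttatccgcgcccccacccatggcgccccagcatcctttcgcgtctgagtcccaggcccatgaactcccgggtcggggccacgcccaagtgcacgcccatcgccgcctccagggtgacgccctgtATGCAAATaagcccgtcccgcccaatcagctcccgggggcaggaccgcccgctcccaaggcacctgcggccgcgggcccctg
UCHL1, chr4:41256678-41256927, plus strand: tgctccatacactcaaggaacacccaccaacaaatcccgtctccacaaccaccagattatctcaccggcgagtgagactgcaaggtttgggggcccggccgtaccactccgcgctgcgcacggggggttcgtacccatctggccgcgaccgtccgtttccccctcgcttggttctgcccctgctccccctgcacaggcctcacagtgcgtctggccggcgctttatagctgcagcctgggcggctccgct

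The SERPINA9 window holds 2 octamers, which begin 133 and 96 bases before the gene's start. They lie in a stretch of 37 bases that occurs 2 times in direct succession. MEF2B has 1 octamer, on the other strand, 82 bases before the start, and none was found in the windows of UCHL1, RGS13 or MME. Searched on both strands, the octamer is in 1.63% of all 35114 promoter windows of this length. The STAT binding motif TTCNNNGAA, which reads the same on both strands and can share end bases with the octamer, was in 6.57% of all windows and in none of those of the 5 markers. These are matches of letters alone. CpG dinucleotides numbered 1 in SERPINA9 and 1 in RGS13, against 20 in UCHL1 and 21 in MEF2B, where the median window has 11.

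Between STAT3 shRNA and control in OCI-LY10, LMO2, SERPINA9, MEF2B and RGS13 fell and UCHL1 rose, while MYBL1 and MME were below the level for testing. The test was limma on log2(FPKM + 1) over the 11162 genes whose mean reached 1 FPKM, with Benjamini-Hochberg adjusted p below 0.05. Of the 5 markers tested, 4 were lower and 1 was higher, where 17.4% of all genes tested were lower and 20.3% higher. In bulk RNA, fewer cells that make a gene and less RNA per cell cannot be told apart. LMO2 and SERPINA9 reached the level for testing through the control library alone, and UCHL1 through the shRNA libraries alone, so these 3 had to differ and the count supports nothing about the group. The same holds for every other gene named here that was under 1 FPKM in the control or in both shRNA libraries, and its p is no support for a difference. The control has 1 library, so a gene's own spread comes from the 2 STAT3 shRNA libraries alone, and limma combines it with that of other genes. These 2 libraries carry different shRNAs, and no label says that they are separate cultures. Where both are listed at 0, as for SERPINA9 and RGS18, the gene has no spread of its own. The spread behind its p is then that of other genes.

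**Figure D1:**
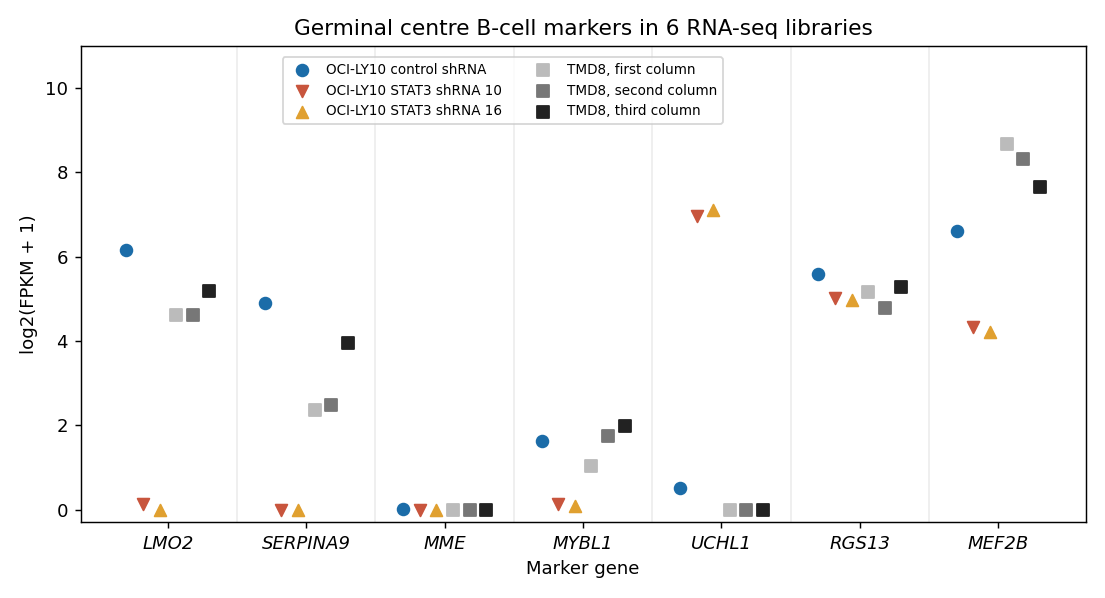
Level of each of the 7 markers as log2(FPKM + 1), with 1 point per library: the OCI-LY10 control (circle), STAT3 shRNA 10 and 16 (triangles) and the 3 unnamed TMD8 columns (squares). LMO2, SERPINA9, MYBL1 and MEF2B are lower in both STAT3 shRNA libraries than in the other 4 libraries, UCHL1 is high in these alone (123 and 137 FPKM), RGS13 differs little and MME is at or near 0.

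LMO2 encodes a LIM-domain protein that bridges transcription factors without binding DNA itself. It was at 70.3 FPKM in the OCI-LY10 control, 0.102 with shRNA 10 and listed at 0 with shRNA 16. The TMD8 columns held 23.6, 23.6 and 35.2 FPKM, and so lay below the OCI-LY10 control and far above both STAT3 shRNA libraries. The change in OCI-LY10 was −6.09 on the log2(FPKM + 1) scale (SE 0.12, limma adjusted p = 0.00676), and 0.376% of tested genes had a larger absolute change. Its size depends on the value added before the logarithm: with 0.1 in place of 1 FPKM it was −8.95 (SE 0.56).

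Genes known to act with LMO2 fell less or did not pass. Of 17 listed partners and relatives, 8 were tested, 0 rose, 3 fell and 5 did not pass, with a median change of −0.48 against 0.06 over all tested genes. Over all tested genes, 20.3% rose and 17.4% fell. TCF3, an E protein, fell from 73.5 FPKM to 34.6 and 38.0 (limma adjusted p = 0.0228), and SSBP3, a stabiliser of the complex, from 11.6 to 5.39 and 6.04 (adjusted p = 0.0303). Both calls were lost when low genes were kept in the test (adjusted p = 0.0527 and 0.0667). LDB1, the core partner, did not pass, at 30.2 FPKM in the control against 22.8 and 25.1. TAL1, GATA1 and LDB2 were listed at 0 in all 6 libraries, and LYL1, the relative of TAL1, was at 1.19 FPKM against 2.35 and 2.97.

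The protein-coding genes on either side of LMO2 differed little. CD59, FBXO3, CAPRIN1 and NAT10, the nearest 2 on each side in the RefSeq gene order, were all tested and none passed. CAPRIN1, next to LMO2, was at 88.5 FPKM in the control and at 90.4 and 93.8 with the shRNAs. By the same rule the 7 markers have 28 neighbours, of which 27 are in the tables, 15 were tested, 2 were lower and 0 higher. The 2 were APBB2 beside UCHL1 and RGS2 beside RGS13. For comparison, 17.4% of the 11162 genes in the test fell and 20.3% rose. With 15 neighbours tested, their count is only a description. Looking at neighbours was decided after the values of the markers were known.

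SERPINA9, a clade A serpin also called GCET1, is made almost only by germinal centre B cells. It was at 29.1 FPKM in the OCI-LY10 control and listed at 0 with both shRNAs (limma adjusted p = 0.00676), so no fold is given. In TMD8 the columns held 4.10, 4.57 and 14.4 FPKM. The third column was thus over 3 times as high as the first, a ratio of 3.52, and still below the OCI-LY10 control. The other 9 clade A serpins listed never reached 1 FPKM, and 5 of them were listed at 0 in every library. SERPINA11, which lies beside SERPINA9, was the highest of these at 0.634 FPKM in the OCI-LY10 control. It was listed at 0 with both shRNAs and held 0.183, 0.0371 and 0.356 FPKM in the TMD8 columns.

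MYBL1 encodes A-MYB, a transcription factor of cycling germinal centre B cells. It was low everywhere, at 2.09 FPKM in the OCI-LY10 control against 0.0980 and 0.0537 with the shRNAs, and at 1.06, 2.38 and 2.95 in the TMD8 columns. The control lay within the TMD8 range, and both shRNA libraries lay below all other libraries. With a mean of 0.749 FPKM in OCI-LY10 the gene missed the level for testing. When that level was lowered to 0.5 FPKM, a choice made after seeing the data, it fell by 1.52 on the log2(FPKM + 1) scale (SE 0.07, limma adjusted p = 0.0111, and 0.0294 with no filter). It passed the lower level through the control library alone, so the former p is no support. The p with no filter rests on 1 control library and on shRNA values near 0, so it is not taken as support either. Its relatives went in opposite directions: MYB fell from 6.71 FPKM to 1.70 and 1.64 (adjusted p = 0.0126) and MYBL2, a cell-cycle gene, rose from 189 to 377 and 402 (adjusted p = 0.0199).

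MEF2B is a MADS-box transcription factor that activates BCL6 and is often mutated in lymphoma. It fell from 96.3 FPKM in the OCI-LY10 control to 19.3 and 17.5 with the shRNAs, a mean of 18.4 ± 1.24 (SD, n = 2) which is 19.1% of control. On the log2(FPKM + 1) scale it changed by −2.33 (SE 0.11, limma adjusted p = 0.00969), and 6.17% of tested genes changed more. TMD8 held much more, with 405.6, 318 and 202 FPKM by column. The OCI-LY10 control and all TMD8 columns lay above the STAT3 shRNA libraries, and the TMD8 median was 17.3 times the mean of these. MEF2B overlaps a readthrough gene with its neighbour BORCS8 (listed as MEF2BNB), so how reads were divided between them is uncertain. BORCS8 itself did not pass, at 8.19 FPKM in the control and 11.1 and 9.61 with the shRNAs.

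The other MEF2 factors moved the opposite way to MEF2B. MEF2C, which acts in B-cell proliferation, rose from 7.40 FPKM to 28.5 and 29.9 (limma adjusted p = 0.0108), and HDAC7, a deacetylase that binds MEF2 factors, from 10.9 to 31.3 and 36.4 (adjusted p = 0.0194). Of 10 listed MEF2 factors and co-regulators, 8 were tested, 4 rose, 0 fell and 4 did not pass, with a median change of 0.43. MEF2A and MEF2D also rose. Of all tested genes, 20.3% rose and 17.4% fell, so with 8 genes tested this count is only a description. The call of HDAC7 was lost when low genes were kept (adjusted p = 0.0530). HDAC9 was not tested, at 1.98 FPKM in the control, listed at 0 with both shRNAs and at 4.88 to 6.50 in TMD8.

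RGS13 shortens signals of G protein-coupled chemokine receptors in germinal centre B cells. Among the 6 markers other than MME, whose values were at or near 0, it had the most even level: 47.3 FPKM in the OCI-LY10 control, 31.4 and 30.2 with the shRNAs, and 34.7, 26.6 and 38.1 in the TMD8 columns. The shRNA libraries lay inside the TMD8 range, and the control lay above all others. In OCI-LY10 it fell to 30.8 ± 0.888 FPKM (SD, n = 2), 65.2% of control, a log2 change of −0.60 (SE 0.09, limma adjusted p = 0.0349). That call was lost when low genes were kept in the test (adjusted p = 0.0542), and 42.1% of tested genes changed more.

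Other RGS genes of the same group went both ways. Of 9 listed, 6 were tested, 1 rose, 3 fell and 2 did not pass (median −1.34). Over all tested genes, 20.3% rose and 17.4% fell. RGS18, RGS16 and RGS5 were tested through 1 group alone and so had to differ, which leaves 1 call, that of RGS2, beside them. RGS18 was at 4.06 FPKM in the control and listed at 0 with both shRNAs (limma adjusted p = 0.00733), and at 6.73 to 9.11 in TMD8. RGS16 fell from 6.01 FPKM to 0.254 and 0.666 (adjusted p = 0.0215), a call lost when low genes were kept (adjusted p = 0.0646), and RGS5 rose from 0.565 to 1.42 and 1.47 (adjusted p = 0.0266). Beside RGS13 on the chromosome, RGS2 fell from 67.3 FPKM to 20.9 and 23.1 (adjusted p = 0.0149), while RGS1 did not pass, at 5.54 against 2.55 and 4.36.

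Among 12 receptors and G proteins that place B cells in follicles, the setting in which RGS13 acts, 8 were tested, 2 rose, 2 fell and 4 did not pass (median 0.11). Over all tested genes, 20.3% rose and 17.4% fell. CXCR4, which draws germinal centre B cells to the dark zone, fell from 42.4 FPKM to 1.54 and 1.27 (limma adjusted p = 0.00733) and was at 55.3 to 66.9 in TMD8. GPR183, an oxysterol receptor that guides B cells to the outer follicle, fell from 11.6 to 0.596 and 0.571 FPKM (adjusted p = 0.00733). CXCR5, the follicle-homing receptor, rose from 76.0 to 129 and 138 FPKM (adjusted p = 0.0259, and 0.0525 when low genes were kept), and GNA13, the G protein of germinal centre confinement, from 18.7 to 37.6 and 36.5 (adjusted p = 0.0198).

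UCHL1, a ubiquitin hydrolase found in neurons and in B cells of the germinal centre, was the marker that rose. It was at 0.437 FPKM in the OCI-LY10 control, 123 with shRNA 10 and 137 with shRNA 16, and listed at 0 in all 3 TMD8 columns. The shRNA libraries had a mean of 130.5 FPKM ± 9.95 (SD, n = 2), 299 times the control value, a log2(FPKM + 1) change of 6.51 (SE 0.12, limma adjusted p = 0.00676). A larger absolute change was seen in 0.278% of tested genes. Its relatives UCHL3, UCHL5 and BAP1 did not pass (adjusted p = 0.0722, 0.0713 and 0.0644), and BAP1, for example, was at 26.7 FPKM in the control against 35.0 and 35.2. APBB2, next to UCHL1 on the chromosome, fell from 4.40 FPKM to 1.15 and 1.46 (adjusted p = 0.0231).

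Since UCHL1 also marks neurons, 6 neuronal markers are given beside it. They summed to 9.86 FPKM in the OCI-LY10 control, 69.1 and 88.9 with the shRNAs and 6.54 to 8.94 in TMD8. ENO2, a glycolytic enolase, rose from 6.10 FPKM to 55.3 and 73.6 (limma adjusted p = 0.0150), and TUBB3, a beta tubulin, from 2.69 to 13.8 and 15.3 (adjusted p = 0.0121). The sum was made up almost wholly of these genes. GAP43 was at 0.948 FPKM in the control and listed at 0 with both shRNAs, SYT1 was at 0.125 against 0.0112 and 0, and the defining synaptic gene SNAP25 and STMN2 were listed at 0 in all 6 libraries. The 9 epithelial, fibroblast and endothelial markers summed to 40.1 FPKM in the control, of which CDH1 made up 32.6, to at most 12.1 with either shRNA and to 23.3 to 26.3 in TMD8. Of these, 5 were tested, 2 rose, 2 fell and 1 did not pass, where 20.3% of all tested genes rose and 17.4% fell. The 4 that passed were tested through 1 group alone and so had to differ. CDH1 was at 0.0102 and 0 FPKM with the shRNAs, and the collagen gene COL1A1 at 3.60 in the control against 0.00823 and 0. The endothelial gene PECAM1 was at 0.109 FPKM in the control against 5.43 and 6.05, and EPCAM, an epithelial adhesion gene, was at 4.39 with each shRNA and listed at 0 in the other 4 libraries. The part of these markers in the result for UCHL1 was not tested.

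MME encodes CD10, the surface peptidase by which germinal centre B cells are recognised. It was listed at 0.00569 FPKM in the OCI-LY10 control and at 0 in the other 5 libraries. Of its family, ECE1 fell from 48.0 FPKM to 26.6 and 27.7 (limma adjusted p = 0.0241), and ECE2 rose from 17.5 to 27.1 and 25.6 (adjusted p = 0.0431). The call of ECE2 was lost with median-of-ratios scaling (adjusted p = 0.0524), with quantile normalization (0.0537) and when low genes were kept (0.0667).

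**Figure D2:**
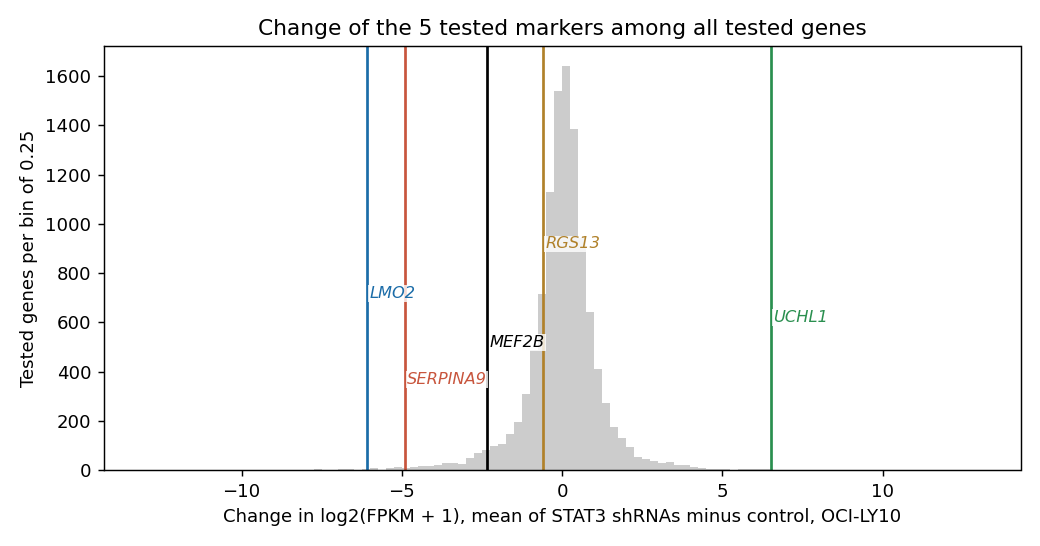
Distribution of the change in log2(FPKM + 1) from control to the mean of the STAT3 shRNA libraries over 11162 tested genes of OCI-LY10, in bins of 0.25, with a line at each of the 5 tested markers. LMO2 (−6.09) and UCHL1 (6.51) lie at opposite ends, and RGS13 (−0.60) lies within the bulk of genes.

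Set beside the TMD8 columns, the markers of the OCI-LY10 control were nearer to TMD8 than to the STAT3 shRNA libraries of their own line. The 2 tables may have been scaled separately, so this is a description with no test. For all 6 markers whose mean over both lines reached 1 FPKM, the control was closer on the log2(FPKM + 1) scale to the TMD8 median than to the STAT3 shRNA mean, and the same held for 59.5% of all 11340 such genes. UCHL1 reached that mean through the STAT3 shRNA libraries alone, so its control had to be nearer to TMD8 and it adds nothing to this count. The distance was 1.54 to TMD8 against 6.09 to the shRNAs for LMO2, and 2.43 against 4.91 for SERPINA9. For MYBL1 it was 0.13 lower than TMD8 and 1.52 higher than the shRNAs. For UCHL1 the control was 0.52 above TMD8 and differed from the shRNAs by −6.51. RGS13 was the closest case, at 0.44 against 0.60, while MEF2B was −1.72 from TMD8 and 2.33 from the shRNAs.

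**Figure D3:**
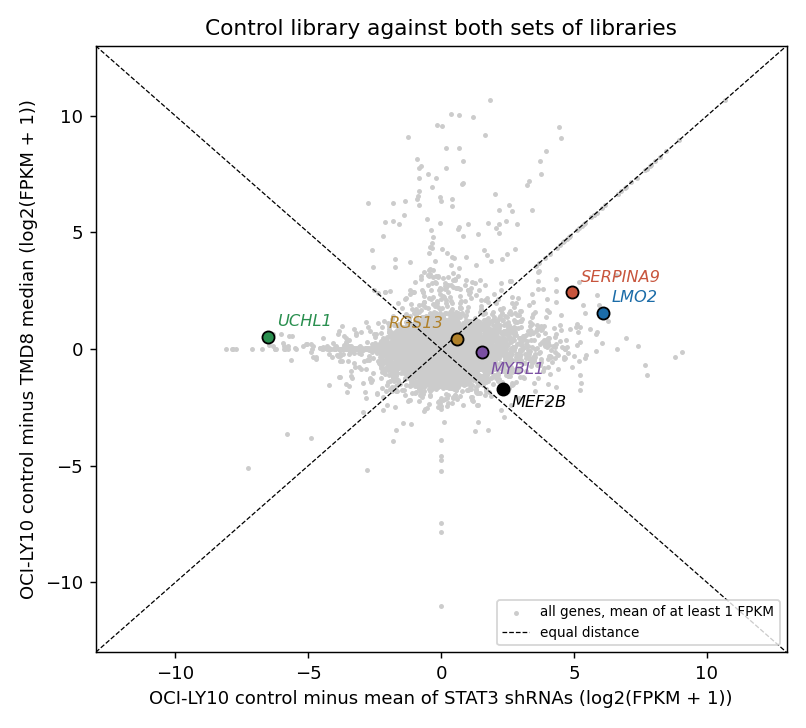
Distance of the OCI-LY10 control from the mean of the STAT3 shRNA libraries (horizontal) and from the TMD8 median (vertical), both as differences in log2(FPKM + 1). Each grey point is 1 of 11340 genes, the 6 markers are coloured, and points between the dashed lines to the left and right of the centre are nearer to TMD8, where all 6 markers lie. UCHL1 passed the filter through the STAT3 shRNA libraries alone and so had to lie there.

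Within each set the markers also varied to different extents. Between the STAT3 shRNA libraries, none of the 3 markers whose mean there reached 1 FPKM (UCHL1, RGS13 and MEF2B) differed 1.5-fold on the log2(FPKM + 1) scale, where 3.79% of all such genes did. Between the TMD8 columns, SERPINA9, MEF2B and MYBL1 of 5 such markers spanned at least 1.5-fold, against 11.5% of genes, and with 5 markers this share is only a description. In TMD8, the third column was the highest for LMO2, SERPINA9, MYBL1 and RGS13 and the lowest for MEF2B. It was also the column nearest to the OCI-LY10 control for 4 of the 5 markers without a tie, all but MYBL1, while 52.5% of all such genes had it nearest. It was also the TMD8 column whose small RNA share was nearest to that of the OCI-LY10 control.

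The genes most like each marker were those with the smallest Euclidean distance of log2(FPKM + 1) over the 6 libraries. LMO2 was followed most closely by CREB3L1, a membrane-bound transcription factor (distance 0.32), with 69.1 FPKM in the OCI-LY10 control, 0.0188 and 0.0257 with the shRNAs and 19.5, 25.9 and 36.0 in the TMD8 columns. TYROBP, a signalling adaptor of myeloid and NK cells (0.48), and the tubulin gene TUBB2B (0.61) came next, both listed at 0 with both shRNAs. UCHL1 was matched by SNURF (0.14), which shares its transcript with SNRPN and stood at 0.565 FPKM in the control against 119 and 132.5, then by APP (0.36) and the calcineurin regulator RCAN2 (0.60). MYBL1 was nearest to MMRN2 (0.39), KIF13A (0.42) and C5AR1 (0.47), and RGS13 to PAF1 (0.25), MFAP1 (0.28) and TRIAP1 (0.35).

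For SERPINA9 and MEF2B every distance was above 1. The nearest to SERPINA9 were SNCG (1.23), GNG11 (1.24) and FOXI1 (1.25). SNCG, a synuclein gene, was at 12.7 FPKM in the OCI-LY10 control, listed at 0 with both shRNAs and at 4.06, 6.66 and 13.3 in TMD8. MEF2B was nearest to DTX1 (1.18), a regulator of Notch signalling at 96.6 FPKM in the control, 32.3 and 31.2 with the shRNAs and 296, 280 and 206.5 in TMD8. PPP2R5C, a subunit of protein phosphatase 2A, followed (1.34).

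Other genes of germinal centre B cells went both ways in OCI-LY10, CXCR4, CXCR5 and GNA13 above being among them. Of 30 found in the tables, 26 were tested, 9 rose, 8 fell and 9 did not pass, with a median change of 0.09 against 0.06 over all tested genes. Over all tested genes, 20.3% rose and 17.4% fell. Of the 26, 4 were tested through 1 group alone and so had to differ. POU2AF1, the co-activator named above with the octamer, rose from 2.44 FPKM to 197 and 181 (limma adjusted p = 0.00676), and its TMD8 columns held 50.1, 41.3 and 21.0. BACH2, a repressor of plasma cell fate, stood at 0.0833 FPKM in the control against 13.1 and 15.0 (adjusted p = 0.00755), and at 0.139 to 0.292 in TMD8. TCL1A, an AKT co-activator, was at 474 FPKM in the control against 0.0396 and 0.108 (adjusted p = 0.00676), and at 589.5 to 600.2 in TMD8. BCL6, the master repressor of the germinal centre, did not pass (adjusted p = 0.161), at 19.6 FPKM against 27.0 and 38.7, and at 17.8 to 23.9 in TMD8.

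**Figure D4:**
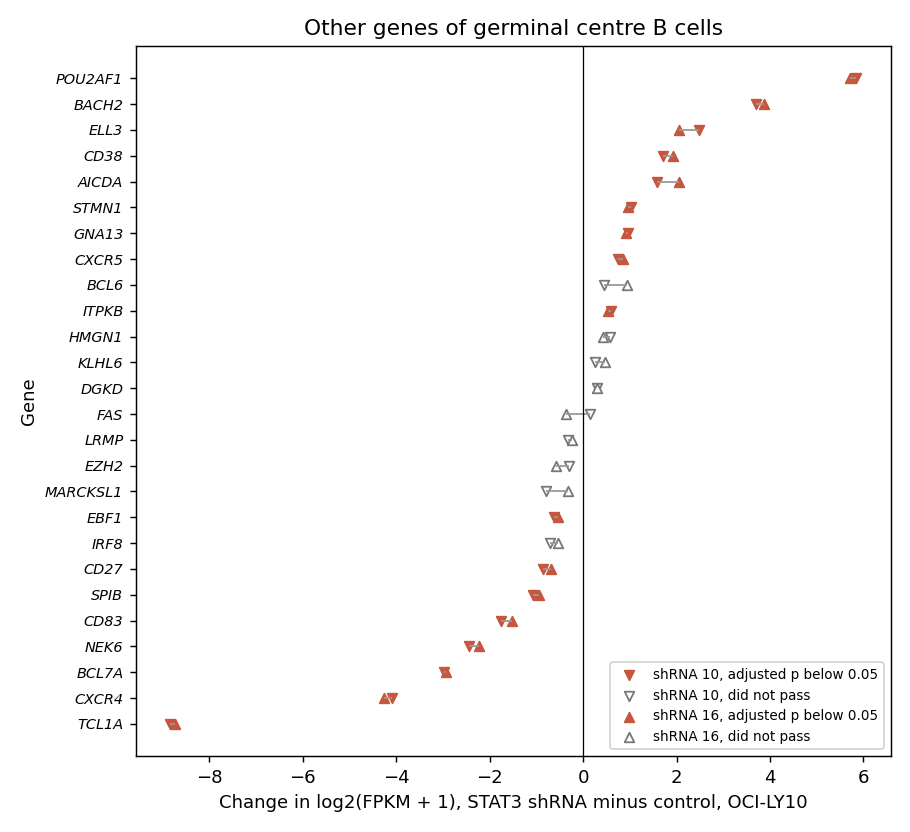
Change in log2(FPKM + 1) from the OCI-LY10 control for the 26 tested other genes of germinal centre B cells, with 1 triangle for each STAT3 shRNA. Filled symbols mark the 17 genes that passed the test, 9 above and 8 below 0, from POU2AF1 (5.78) to TCL1A (−8.79), where the number given is the mean of both shRNAs.

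Genes of the activated type and of plasma cell fate also went both ways. Of 24 in the tables, 22 were tested, 10 rose, 6 fell and 6 did not pass (median 0.38). The 6 that fell include STAT3, the target of the shRNAs. They also include PRDM1, which was tested through the control library alone and so had to differ. Over all tested genes, 20.3% rose and 17.4% fell. In this list IRF4 and PRDM1, the factors that end the germinal centre programme, fell most. PRDM1 fell by 2.67 and IRF4 fell by 2.40 on the log2 scale (limma adjusted p = 0.00773 and 0.00916). They were at 23.6 to 31.2 and 478 to 604 FPKM in TMD8. The kinase gene PIM1 rose by 2.60 and the receptor gene TNFRSF13B by 1.94 (adjusted p = 0.00879 and 0.0126). In the STAT3 shRNA libraries, LMO2, SERPINA9, MEF2B, IRF4 and PRDM1 were lower than in the control. Of these 5, 3 (LMO2, SERPINA9 and PRDM1) were below 1 FPKM in both. Others of the same lists were higher there, among them UCHL1, POU2AF1 and BACH2. XBP1, in the list with IRF4 and PRDM1, was at 20.7 FPKM in the control against 77.5 and 67.4 (limma adjusted p = 0.0158). No common direction of either programme is therefore shown.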

How the data were processed

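RNA-seq values of 6 libraries were used as deposited. The authors deposited FPKM per gene and library in 1 table per cell line. TopHat, Bowtie2 and the build hg19 are named, without role or version, per the submitters' processing notes. For the FPKM tool, annotation, scaling and strand setting: not given in the sources used here. Both tables have 25277 rows and 25275 symbols, and rows of repeated symbols were summed. OCI-LY10 columns were matched by name. The 3 TMD8 columns have no names and were assigned to the line alone.

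In OCI-LY10, genes whose mean of 3 libraries reached 1 FPKM were tested on the log2(FPKM + 1) scale with limma (version 3.58.1, R 4.3.3). Moderated variances followed a trend with the mean, p-values were two-sided, and Benjamini-Hochberg adjustment over 11162 genes was applied at 0.05. The fit sets 2 STAT3 shRNA libraries against 1 control, with 1 residual and 1.64 prior degrees of freedom. An exact permutation test could not go below 0.333. The fit was also run on simulated data with noise of equal size in each library. The simulation held no values of 0 and no bias of the control, so it does not bear on the p-values given here. Fold changes on this scale understate those of low genes. FPKM holds no total count, so absolute depth is unknown, and a listed 0 can be a failed estimate.

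The markers and gene lists were chosen with earlier results of these data known. Named were all 7 markers, STAT3, up to 2 genes that rose and 2 that fell most per list among those that passed, and the 3 nearest genes per marker, except items that are not reported here. XBP1 and other genes named as did not pass, as not tested or by their neighbourhood were chosen after their values were seen. Promoters come from RefSeq (GRCh38.p14), and their strand was checked by the place of TATAAA: it began 20 to 40 bases before the start in 393 of 1192 minus-strand windows that held it, against 110 of 901 for its reverse complement. No coordinates of the hg19 values are given.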

Additional observations from a re-analysis of the deposited data

How the results depend on the processing

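The fit in OCI-LY10 was repeated under 10 alternative settings, 2 of them chosen after seeing the data (genes above 0 FPKM in all 3 libraries, and a mean of at least 0.5 FPKM). UCHL1 and MEF2B kept their direction and their call under all 10, and LMO2 and SERPINA9 under the 9 that could test them. RGS13 lost its call under 1 setting, the test that kept low genes. Where genes were filtered by their mean, LMO2, SERPINA9 and UCHL1 passed the filter through 1 group alone. They had to differ there, so their kept calls add no support. With genes required above 0 FPKM in all 3 libraries, 2 markers were lower instead of 4, because LMO2 and SERPINA9 were then not tested. Over all genes, 2263 were higher and 1943 lower, against 1299 higher when low genes were kept and 1178 lower with a mean of at least 5 FPKM, where fewer genes were tested (8032). The cause of the fall to 1299 was not tested. With small RNA genes left out, 2844 were higher and 2308 lower of 10856 tested. With genes above 0 FPKM in all 3 libraries these were 3037 and 2402 of 10809, so the share of genes called depends on the setting. Median-of-ratios scaling of the OCI-LY10 libraries gave changes of −6.14 for LMO2, −4.96 for SERPINA9, 6.47 for UCHL1, −2.40 for MEF2B and −0.68 for RGS13. Leaving out either STAT3 shRNA library gives 1 library against 1 and so a value with no test. The changes were then −6.16 and −6.02 for LMO2, 6.59 and 6.44 for UCHL1, −2.39 and −2.26 for MEF2B, and −0.63 and −0.57 for RGS13. The control library cannot be left out, since no comparison would remain. Median-of-ratios scaling over the 6 columns left all 6 markers of the OCI-LY10 control nearer to TMD8, with 60.0% of all genes. For UCHL1 this was again fixed by the filter. No paired analysis was possible because the control has 1 library. Low markers (MYBL1, MME) and values listed at 0 are limited by depth, which FPKM does not give.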
